A study of Drosophila melanogaster with 8 samples.

Results

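Aminoacyl-tRNA synthetases are the enzymes that join each amino acid to its tRNA, so that every codon is read with the right residue. Animal cells keep largely separate sets of these enzymes for the cytosol and for the mitochondrion. The mitochondrial set, although encoded in the nucleus, serves only the few proteins made from mitochondrial DNA. In Drosophila the gene symbols show the amino acid and the compartment, as in ValRS for the cytosolic and ValRS-m for the mitochondrial valyl-tRNA synthetase. Genes are called cytosolic or mitochondrial here by symbol alone. Glycine, histidine, lysine and threonine have no measured gene with -m, and a gene without -m may also serve mitochondria. The genes described here are those whose symbol is a 3-letter amino acid code followed by RS, with or without -m, together with GluProRS, a fused enzyme for glutamate and proline. On the arrays 32 probe sets carried such a symbol, and after keeping the brightest probe set of each gene there were 30 genes, 16 cytosolic and 14 mitochondrial, of 11981 genes with a probe set of their own symbol. RefSeq lists 33 genes that meet the rule. The other 3, AspRS, MetRS and AlaRS-m, are named by no probe set in the annotation used here and were not analysed here.

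RNA came from whole adult heads of 4 HEXIM knockdown samples, whose flies carried the GMR-Gal4 driver and a UAS RNAi transgene against Hexim, and of 4 wild type (WT) samples of the W118 strain, for which no driver or transgene is named. The labels give W118 as the strain of all 8 samples and 29°C as the rearing temperature, and give neither age nor sex. HEXIM is the inhibitor of P-TEFb, the kinase that releases paused RNA polymerase II, and the comparison asks what its depletion during eye differentiation does to the transcripts of the head. GMR-Gal4 acts in differentiating eye cells, while the synthetases are made in every tissue of the head. The RNA came from pooled heads, in which fewer cells of a type and less RNA per cell cannot be told apart. Driver, transgene and knockdown are carried together and cannot be told apart either.

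The values are log2 levels of Affymetrix Drosophila_2 probe sets as the authors deposited them, with array medians of 5.43 to 5.57. A log2 difference of HEXIM knockdown minus WT is given for each gene, tested with limma on 18769 probe sets and called at a Benjamini-Hochberg adjusted p under 0.05. Hexim itself stood at 7.60, 7.54, 7.52 and 7.77 in HEXIM knockdown replicates 1 to 4, against 8.14, 7.85, 7.96 and 7.79 in WT replicates 1 to 4, a log2 difference of -0.33 (SE 0.10, adjusted p = 0.418 from limma). Every knockdown array lay below every WT array, the closest being knockdown replicate 4 and WT replicate 4. Markers of head tissues were present, with elav of neurons at 10.58 in HEXIM knockdown and 10.74 in WT heads and Arr2 of photoreceptors at 13.88 in HEXIM knockdown and 13.97 in WT heads. The leading principal component of all probe sets (51.3% of the variance) set HEXIM knockdown replicate 4 and WT replicates 1 and 3 apart from 5 other arrays, and their middle minus 3' control probe levels were -3.16, -2.98 and -3.28, against -2.07 to -1.81 in the others.

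None of the 30 synthetase genes passed the limma test, where 0.256% of all probe sets did. The 16 cytosolic genes lay close to 0, between -0.18 (ArgRS) and 0.09 (HisRS), with 9 positive and 7 negative log2 differences and a median of 0.02, which was -0.045 without HEXIM knockdown replicate 1. The 14 mitochondrial genes reached further down, between -0.71 (ValRS-m) and 0.14 (SerRS-m), with 4 positive and 10 negative log2 differences and a median of -0.07. The median over all probe sets tested was -0.02, and 55.4% of them were negative. At an unadjusted p under 0.05 from limma there was no cytosolic gene and there were 4 mitochondrial genes, all lower in HEXIM knockdown heads, namely ValRS-m, AsnRS-m, TrpRS-m and GluRS-m. Among all probe sets 4.4% were lower at that limit and 2.84% higher. Among the 9285 probe sets in the synthetase genes' range of mean level 6.21% were lower at that limit. Of the 30 genes, 3 had groups that did not overlap, ValRS-m, AsnRS-m and GluRS-m, each with all 4 HEXIM knockdown arrays below all 4 WT arrays, as 3.37% of all probe sets had. Over all probe sets 5.35% had groups without overlap in either direction, and 1.99% had the knockdown arrays above, which no synthetase gene had. In the same range of mean level 416 of 9285 probe sets had all knockdown arrays below all WT arrays. Groups that do not overlap always give p = 0.0286 in the exact two-sided permutation test over arrays, the smallest that 4 arrays against 4 allow. For these 3 genes that p therefore adds nothing to the lack of overlap.

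**Figure D1:**
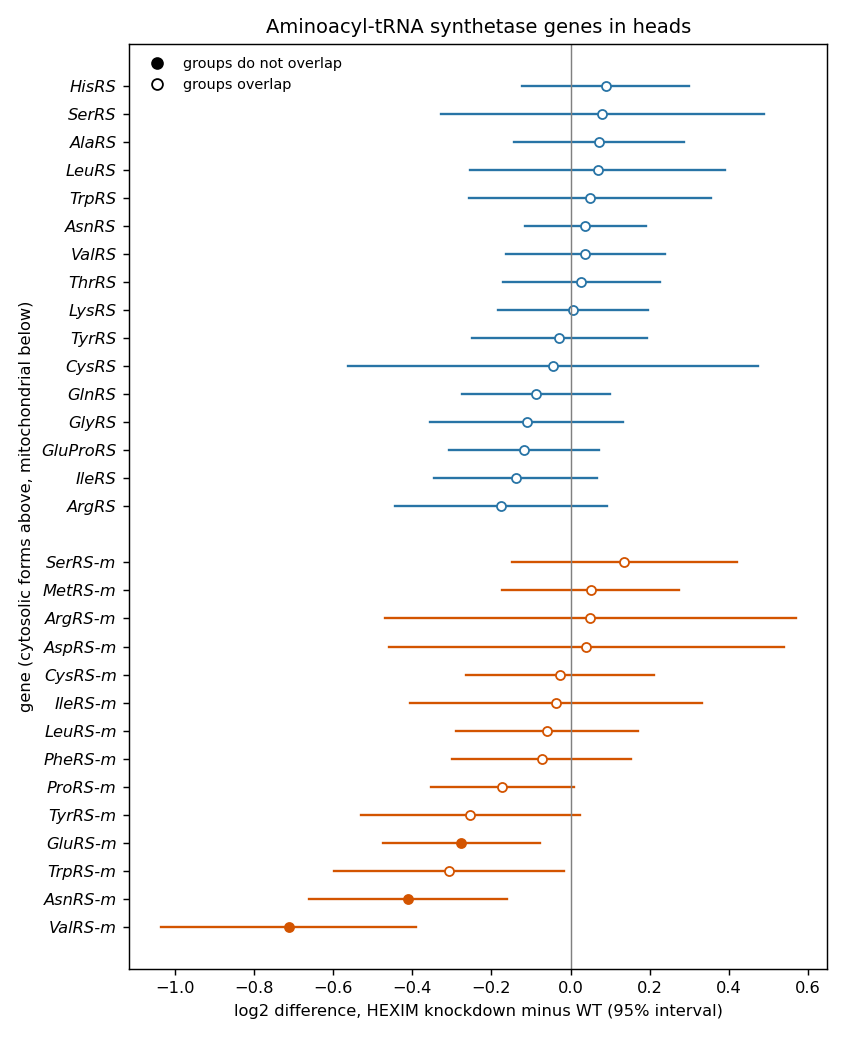
Log2 difference (HEXIM knockdown minus WT, horizontal axis) of the 30 synthetase genes with its 95% interval from limma, cytosolic genes above and mitochondrial genes below. Filled points mark the 3 genes whose 4 knockdown and 4 WT arrays do not overlap, and ValRS-m at -0.71 lies furthest from 0.

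Among the mitochondrial enzymes, ValRS-m, which charges the mitochondrial tRNA of valine, differed most. ValRS-m had log2 levels of 6.15, 6.45, 6.72 and 6.56 in HEXIM knockdown replicates 1 to 4, against 7.07, 7.05, 7.45 and 7.15 in WT replicates 1 to 4. The gap between the highest knockdown array, replicate 3, and the lowest WT array, replicate 2, was wider than for any other synthetase gene, and replicate 1 was the lowest of the knockdown arrays. Its mean level was 6.47 ± 0.24 in HEXIM knockdown and 7.18 ± 0.19 in WT heads (SD, n = 4 each), a log2 difference of -0.71 (SE 0.14, adjusted p = 0.151 from limma), or 0.61 times the WT level with a 95% interval of 0.488 to 0.763. With array weights, which gave HEXIM knockdown replicate 2 a weight of 9.03, the adjusted p of ValRS-m from limma was 0.0101 at a log2 difference of -0.70. Without 1 array it was 0.166 to 0.405, and the log2 difference -0.80 to -0.61.

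AsnRS-m, the mitochondrial asparaginyl-tRNA synthetase, stood at 6.22, 6.51, 6.64 and 6.25 in HEXIM knockdown replicates 1 to 4, against 6.81, 6.73, 6.80 and 6.91 in WT replicates 1 to 4. The 4 WT arrays lay close together, while knockdown replicates 1 and 4 lay below replicates 2 and 3. The log2 difference was -0.41 (SE 0.11, adjusted p = 0.3 from limma). TrpRS-m, the mitochondrial enzyme for tryptophan, stood at 6.51, 6.78, 6.86 and 6.43 in HEXIM knockdown replicates and at 6.80, 7.12, 6.82 and 7.07 in WT replicates, with a log2 difference of -0.31 (SE 0.13, adjusted p = 0.655 from limma). Here the groups overlapped, because knockdown replicate 3 was above WT replicates 1 and 3.

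GluRS-m, the mitochondrial enzyme for glutamate, was read at 4.27, 4.39, 4.31 and 4.37 in HEXIM knockdown replicates, against 4.42, 4.75, 4.62 and 4.65 in WT replicates. These levels are below the array medians, the 4 knockdown arrays were nearly level, and WT replicate 1 was the closest to the highest of them, knockdown replicate 2. The log2 difference was -0.28 (SE 0.09, adjusted p = 0.432 from limma). In the RefSeq gene order GluRS-m is the direct neighbour of TyrRS, the cytosolic enzyme for tyrosine, on chromosome arm 3L, and no other pair of synthetase genes is adjacent. TyrRS had a log2 difference of -0.03 (SE 0.10).

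**Figure D2:**
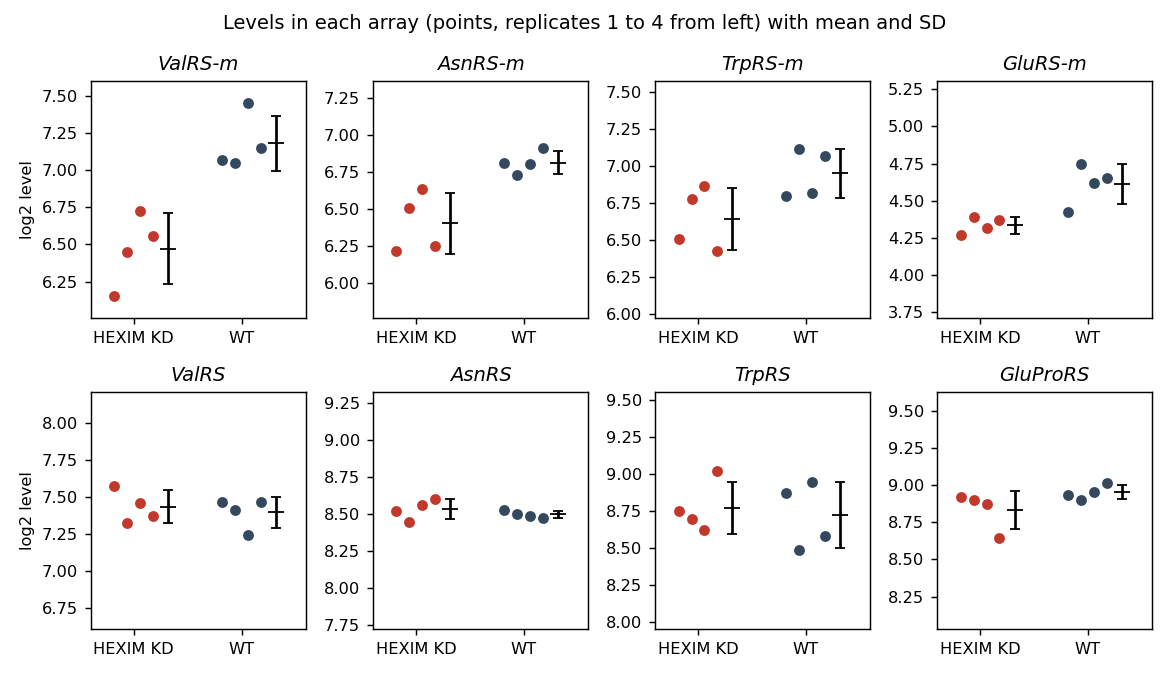
Log2 level (vertical axis, each panel spanning the same range) of 4 mitochondrial genes (top) and 4 cytosolic genes (bottom) in the HEXIM knockdown and WT arrays, with mean and SD. In ValRS-m, AsnRS-m and GluRS-m every knockdown array lies below every WT array, and in ValRS, AsnRS and TrpRS the groups overlap.

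At the upper end of the mitochondrial set were SerRS-m, MetRS-m, ArgRS-m and AspRS-m. SerRS-m had 7.03, 6.89, 6.75 and 7.10 in HEXIM knockdown replicates and 7.05, 6.59, 6.91 and 6.69 in WT replicates, a log2 difference of 0.14 (SE 0.12). MetRS-m, also below the array medians, had 4.67, 4.37, 4.59 and 4.55 in HEXIM knockdown replicates and 4.40, 4.59, 4.36 and 4.63 in WT replicates, a log2 difference of 0.05 (SE 0.10). In both genes the groups overlapped through most of their range. ArgRS-m had 6.59, 6.68, 6.71 and 7.18 in HEXIM knockdown replicates and 7.23, 6.41, 7.01 and 6.31 in WT replicates, so that the 3 arrays that stand apart were its highest. AspRS-m had 6.38, 6.32, 6.49 and 5.60 in HEXIM knockdown replicates and 5.74, 6.38, 6.18 and 6.34 in WT replicates, with the same 3 arrays lowest. Their log2 differences were 0.05 and 0.04, with standard errors of 0.23 and 0.22, the widest among the mitochondrial genes. The remaining mitochondrial genes, TyrRS-m, ProRS-m, PheRS-m, LeuRS-m, IleRS-m and CysRS-m, all had negative log2 differences, between -0.25 (TyrRS-m) and -0.03 (CysRS-m), and every one of their 95% intervals included 0.

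The cytosolic enzymes supply the bulk of protein synthesis in the cell. For these 16 genes the widest 95% intervals were those of CysRS, from 0.677 to 1.39 times the WT level, and SerRS, from 0.797 to 1.40 times, and the narrowest was that of AsnRS, from 0.923 to 1.14 times. A change to 0.488 times the WT level, the lower bound for ValRS-m, thus lies outside the interval of every cytosolic gene. It also lies outside that of every other mitochondrial gene, of which AsnRS-m reached lowest, to 0.633 times, so this does not set the compartments apart. The upper bound for ValRS-m, 0.763 times, lies above the lower bounds of CysRS and ArgRS (0.735 times). AsnRS stood at 8.52, 8.45, 8.56 and 8.60 in HEXIM knockdown replicates and at 8.52, 8.50, 8.49 and 8.47 in WT replicates, a spread of 0.15 over the 8 arrays.

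The lowest cytosolic log2 differences were those of ArgRS, IleRS, GluProRS and GlyRS. ArgRS had 7.51, 7.62, 7.67 and 7.76 in HEXIM knockdown replicates and 8.13, 7.67, 7.76 and 7.69 in WT replicates, a log2 difference of -0.18 (SE 0.12, adjusted p = 0.94 from limma), and without WT replicate 1, its highest array, the value was -0.07. IleRS had 8.33, 8.21, 8.34 and 8.05 in HEXIM knockdown replicates and 8.26, 8.46, 8.39 and 8.37 in WT replicates, a log2 difference of -0.14 (SE 0.09). In both genes the groups overlapped. GluProRS had 8.92, 8.90, 8.88 and 8.65 in HEXIM knockdown replicates and 8.94, 8.90, 8.96 and 9.02 in WT replicates, a log2 difference of -0.12 (SE 0.08), which was -0.05 without the low knockdown replicate 4. GlyRS had 7.75, 7.54, 7.64 and 7.31 in HEXIM knockdown replicates and 7.78, 7.58, 7.72 and 7.61 in WT replicates, a log2 difference of -0.11 (SE 0.11). Replicate 4 was the lowest knockdown array in IleRS, GluProRS and GlyRS, and the highest in ArgRS.

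At the upper end stood HisRS, SerRS, AlaRS and LeuRS. HisRS had 7.84, 7.89, 8.09 and 7.81 in HEXIM knockdown replicates and 7.76, 7.80, 7.98 and 7.75 in WT replicates, a log2 difference of 0.09 (SE 0.09). SerRS had 7.21, 6.98, 6.88 and 6.33 in HEXIM knockdown replicates and 6.65, 6.91, 6.65 and 6.86 in WT replicates, a log2 difference of 0.08 (SE 0.18). The knockdown arrays of SerRS lay both above and below all WT arrays. AlaRS had 7.80, 7.59, 7.45 and 7.44 in HEXIM knockdown replicates and 7.51, 7.46, 7.47 and 7.55 in WT replicates, a log2 difference of 0.07 (SE 0.09). LeuRS had 7.88, 7.84, 7.89 and 7.41 in HEXIM knockdown replicates and 7.61, 7.93, 7.48 and 7.73 in WT replicates, a log2 difference of 0.07 (SE 0.14). Replicate 1 was the highest knockdown array in SerRS and AlaRS, and without it their log2 differences were -0.04 and -0.0046. The remaining 8 cytosolic genes, GlnRS, CysRS, TyrRS, LysRS, ThrRS, ValRS, AsnRS and TrpRS, had log2 differences between -0.09 (GlnRS) and 0.05 (TrpRS).

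TrpRS was the 1 synthetase gene read by more than 1 probe set, and its 3 probe sets did not move alike. The brightest had 8.75, 8.69, 8.62 and 9.02 in HEXIM knockdown replicates and 8.87, 8.48, 8.95 and 8.58 in WT replicates, a log2 difference of 0.05 (SE 0.13). A second TrpRS probe set, at 7.49, 7.31, 7.41 and 7.22 in HEXIM knockdown replicates and 7.24, 7.18, 7.21 and 7.23 in WT replicates, had a log2 difference of 0.14 (SE 0.08). The third, at 6.37, 6.32, 6.28 and 7.87 in HEXIM knockdown replicates and 7.44, 6.45, 7.45 and 6.75 in WT replicates, had one of -0.31 (SE 0.39). In the first and the third probe set the 3 arrays that stand apart were the highest. The probe sets of IleRS, ValRS and ThrRS are of a type that can match transcripts of more than 1 gene, which makes these 3 readings less certain.

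For 9 amino acids both the cytosolic and the mitochondrial gene were measured, and the mitochondrial minus cytosolic level was compared between the genotypes within the same arrays. For valine this log2 difference was -0.75, from -0.71 for ValRS-m and 0.04 for ValRS, and for asparagine it was -0.45, from -0.41 for AsnRS-m and 0.04 for AsnRS. In both pairs all 4 knockdown arrays lay below all 4 WT arrays (exact two-sided permutation test, p = 0.0286, and 0.129 after Benjamini-Hochberg adjustment over the 9 pairs). ValRS-m and AsnRS-m had no overlap on their own, and ValRS and AsnRS lay near 0. These pairs therefore largely repeat the values of the mitochondrial genes and are no separate result. How often pairs of other genes lack overlap was not computed. For tryptophan, tyrosine and leucine the values were -0.36, -0.23 and -0.13, and for cysteine, serine, isoleucine and arginine 0.02, 0.06, 0.10 and 0.23, with exact two-sided permutation p values of 0.2 to 0.857. No pair passed the adjusted test. With 9 pairs and a smallest exact permutation p of 0.0286, a pair could pass only if most pairs reached that p.

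Taken over each set, the arrays differed in another way. The median deviation of the 14 mitochondrial genes from their own means was -0.09, -0.08, 0.0036 and -0.14 in HEXIM knockdown replicates 1 to 4, against 0.07, 0.13, 0.08 and 0.10 in WT replicates 1 to 4. The same median over the 16 cytosolic genes was 0.15, 0.0035, -0.0035 and -0.12 in HEXIM knockdown replicates, against -0.03, 0.0030, -0.02 and 0.02 in WT replicates. The mitochondrial medians were all lower in the knockdown arrays than in the WT arrays, whereas the cytosolic medians of the knockdown arrays lay on both sides of those of WT, with replicate 1 highest and replicate 4 lowest. These medians are given as a description and were not tested.

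**Figure D3:**
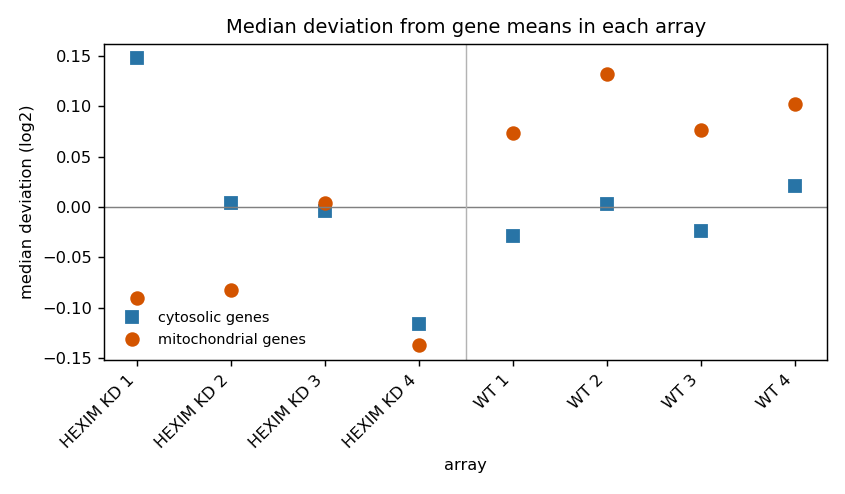
Median deviation from the gene's mean over 8 arrays (log2, vertical axis) of the 16 cytosolic and 14 mitochondrial genes in each array (horizontal axis). Mitochondrial medians run from -0.14 to 0.0036 in HEXIM knockdown and from 0.07 to 0.13 in WT arrays, and the cytosolic median is highest in knockdown replicate 1, at 0.15.

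The 3 arrays that stand apart were all above or all below the other 5 in 12 of the 30 synthetase genes, 40% of them, and in 32.6% of all probe sets. They were above in ArgRS, TrpRS, TyrRS-m, PheRS-m and ArgRS-m, and below in CysRS, TyrRS, ThrRS, LeuRS, SerRS, IleRS-m and AspRS-m. None of the 4 mitochondrial genes with an unadjusted p under 0.05 was among these 12. Nothing is read from this, because the 3 arrays hold both genotypes and such a gene must have overlapping groups. Without these 3 arrays the log2 differences of ValRS-m, AsnRS-m, TrpRS-m and GluRS-m were -0.66, -0.37, -0.38 and -0.38, and no synthetase gene passed the test (adjusted p of 0.359 to 0.589 from limma for these 4).

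**Figure D4:**
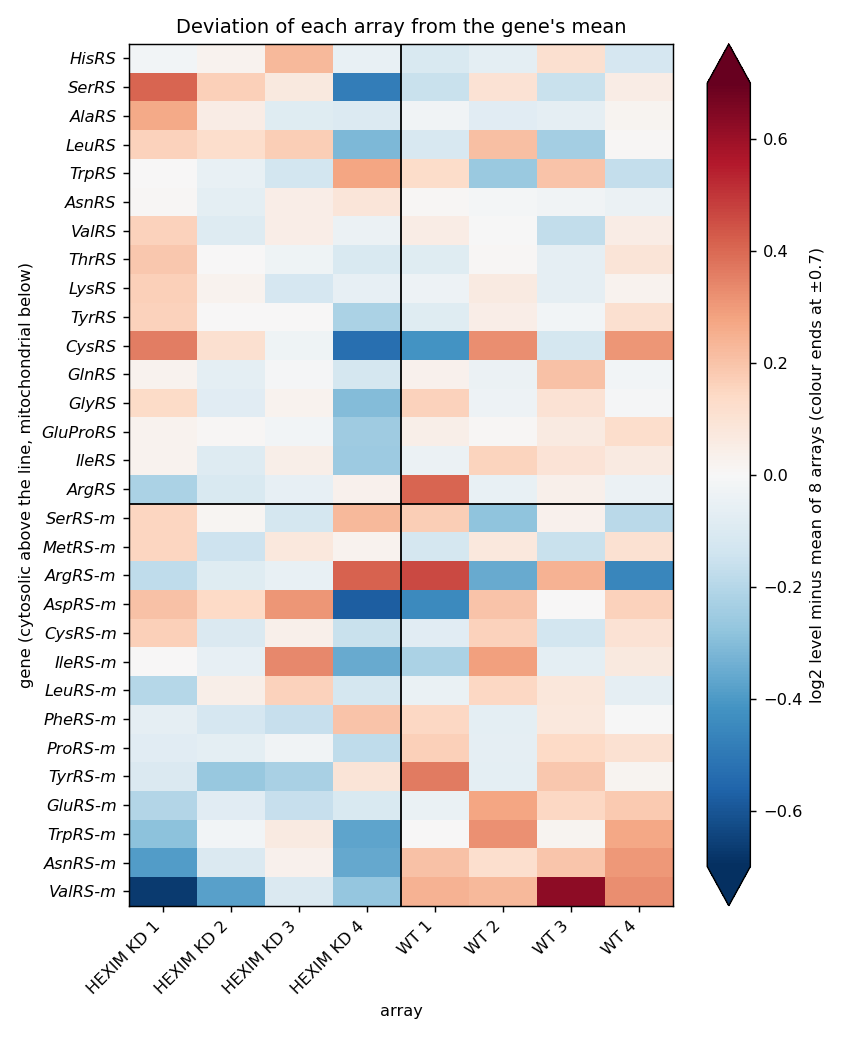
Deviation of each array from the gene's mean over the 8 arrays (log2, colour scale) for the 30 synthetase genes (rows, cytosolic above the line) in 4 HEXIM knockdown and 4 WT arrays (columns). HEXIM knockdown replicate 4 and WT replicates 1 and 3 are all high in genes such as ArgRS-m and TrpRS, and in the rows of GluRS-m, AsnRS-m and ValRS-m every knockdown array lies below every WT array.

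Synthetases fall into 2 structural classes by the fold of the catalytic domain. The cytosolic genes of class I had a median log2 difference of -0.04 over 8 genes and those of class II one of 0.04 over 7 genes, without GluProRS, which holds a domain of each class. Among the mitochondrial genes the medians were -0.06 over 9 genes of class I and -0.07 over 5 genes of class II, so that the lower mitochondrial values were found in both classes, as with ValRS-m of class I and AsnRS-m of class II. In mammals several cytosolic synthetases are held together in a multisynthetase complex. The 6 measured genes for enzymes of that complex, ArgRS, IleRS, GluProRS, GlnRS, LysRS and LeuRS, had a median log2 difference of -0.10, with 4 of 6 negative, and the other 10 cytosolic genes one of 0.04, with 3 of 10 negative. The classes and the complex were considered after the values were seen, and their differences were not tested.

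The complex is built on 3 scaffold proteins. The genes of 2 of them had all 4 knockdown arrays below all 4 WT arrays, as 3.37% of all probe sets had, without passing the test. AIMP2 and AIMP3 were added after their values were seen. AIMP1 stood at 8.57, 8.57, 8.54 and 8.47 in HEXIM knockdown replicates, against 8.84, 8.75, 8.75 and 8.84 in WT replicates, a log2 difference of -0.26 (SE 0.07, adjusted p = 0.29 from limma). AIMP2 stood at 9.09, 9.09, 8.98 and 9.22 in HEXIM knockdown replicates, against 9.42, 9.24, 9.27 and 9.26 in WT replicates, a log2 difference of -0.20 (SE 0.08, adjusted p = 0.61). AIMP3 had one of 0.04 (SE 0.11), with overlapping groups. The subunits of the cytosolic phenylalanyl-tRNA synthetase, which is built of an alpha and a beta chain, had log2 differences of 0.14 (alpha-PheRS, SE 0.09) and -0.34 (beta-PheRS, SE 0.13, adjusted p = 0.61), and Slimp, a mitochondrial protein related to seryl-tRNA synthetase, had -0.20 (SE 0.12). GatA and GatB, subunits of the amidotransferase that makes glutaminyl-tRNA in mitochondria, had -0.06 and -0.15.

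Beyond the synthetases, 115 genes of pathway and tissue marker lists were measured. None of them passed the limma test, and 21 had an unadjusted p under 0.05, a limit that 7.24% of all probe sets met. The lists were chosen with earlier results of these data known, and nothing is read from that count. Groups without overlap, given below for some of these genes, were found in 5.35% of all probe sets. The counts of negative log2 differences below stand beside 55.4% negative among all probe sets, and were not tested. Of 9 measured mitochondrial translation factors, 7 had negative log2 differences, with a median of -0.12 and the lowest value in mRF1, the mitochondrial release factor, at -0.28 (SE 0.16, adjusted p = 0.856 from limma). Of 69 measured mitochondrial ribosomal protein genes, a group looked up after the synthetase values were seen, 61 had negative log2 differences, with a median of -0.10. Of 9 measured cytosolic translation factors 6 were negative, with a median of -0.06 and the lowest p in eIF2beta, at -0.10 (SE 0.07), and of 37 measured cytosolic ribosomal protein genes, likewise looked up after the values were seen, 13 were negative, with a median of 0.02. Of 10 genes of tRNA processing 7 were negative, and Mt2, a tRNA cytosine methyltransferase, had the lowest p, with a log2 difference of -0.35 (SE 0.08, adjusted p = 0.25) and all knockdown arrays below all WT arrays.

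Uncharged tRNA is sensed by the kinase Gcn2, which dampens translation and raises the transcription factor ATF4, encoded by crc in flies, and in mammals ATF4 activates synthetase genes. Gcn2 stood at 6.46, 6.55, 6.59 and 6.24 in HEXIM knockdown replicates, against 6.89, 7.01, 6.84 and 6.98 in WT replicates, a log2 difference of -0.47 (SE 0.10, adjusted p = 0.158 from limma), with no overlap. crc had a log2 difference of -0.12 (SE 0.07). Of the 15 measured genes of this pathway 8 were positive and 7 negative, with a median of 0.01. The highest log2 difference was that of Nmdmc, an enzyme of mitochondrial folate metabolism, which stood at 10.72, 9.17, 8.95 and 8.06 in HEXIM knockdown replicates, against 7.95, 7.77, 7.35 and 7.90 in WT replicates. Its log2 difference was 1.48 (SE 0.48, adjusted p = 0.455), and that of aay, a phosphoserine phosphatase, 0.37 (SE 0.09, adjusted p = 0.245), each without overlap. AsnS, the asparagine synthetase, had one of 0.14 (SE 0.23). Nmdmc, aay and AsnS were added after their values were seen. Knockdown replicate 1 was the highest array in Nmdmc, as in the cytosolic median. It was also the highest in the means of the antimicrobial peptide genes and the female head markers, and a link between these was not tested.

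Among 10 measured amino acid transporters 6 were negative, with a median of -0.04, and gb (genderblind) had the lowest p, at -0.25 (SE 0.09, adjusted p = 0.539 from limma), with all knockdown arrays below all WT arrays. Among 6 measured genes of Tor and Myc signalling 4 were negative, with a median of -0.08, and Mnt, a partner of Max that opposes Myc, had the lowest p, at 0.44 (SE 0.21, adjusted p = 0.748).

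**Figure D5:**
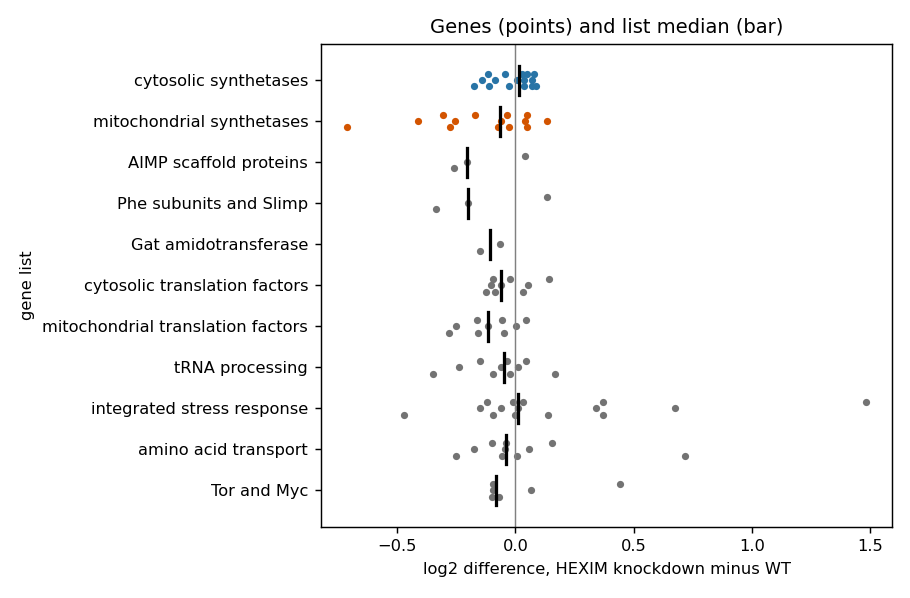
Log2 difference (HEXIM knockdown minus WT, horizontal axis) of the measured genes (points) of each list (rows), with the list's median as a bar. The cytosolic synthetases lie between -0.18 and 0.09, the mitochondrial synthetases reach down to -0.71, and the medians of the pathway lists lie between -0.20 and 0.01.

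The mean levels of some marker lists also lay apart between the genotypes, although no single marker passed the limma test. The mean level of 6 glial markers was 9.96 to 10.09 in HEXIM knockdown and 10.15 to 10.27 in WT arrays, with 4 of the 6 log2 differences negative and a median of -0.16. The lowest were moody at -0.60 (SE 0.10, adjusted p = 0.073 from limma), whose groups did not overlap, and wrapper at -0.41 (SE 0.14), while alrm had 0.04 and nrv2 0.15. The mean of 4 fat body markers was 10.95 to 11.17 in HEXIM knockdown and 9.95 to 10.36 in WT arrays, and that of 6 antimicrobial peptide genes 7.96 to 11.35 in HEXIM knockdown, highest in replicate 1, and 6.58 to 7.41 in WT arrays. For each of these 3 means the arrays of the genotypes did not overlap. This is given as a description, because the lists were chosen with earlier results of these data known. All 4 fat body markers and all 6 peptide genes had positive log2 differences, with medians of 0.98 and 2.18, and the lowest p in Fbp1 (1.17, SE 0.28) and CecB (3.15, SE 0.67). The means of 8 neuronal markers overlapped, at 9.09 to 9.26 in HEXIM knockdown and 9.13 to 9.18 in WT arrays, and those of 4 female head markers did so too, although WT replicate 3 was low at 9.21, against 11.31 to 12.91 in HEXIM knockdown and 11.77 to 12.22 in the other WT arrays. All 4 female markers had positive log2 differences, with a median of 0.83, none at an unadjusted p under 0.05 from limma. Of the 7 photoreceptor markers all had negative log2 differences, of -0.29 (trpl, whose knockdown arrays all lay below the WT arrays) to -0.08 (trp), and medians were -0.17 for 6 muscle markers, with the lowest p in Act88F at -0.33, and 0.01 for 6 haemocyte markers, with the lowest p in lz at -0.30. The lowest p among neuronal markers was that of elav, at -0.16, among female markers that of Yp2, at 0.98, and msl-2, the 1 male marker measured, had -0.28. The part of these tissues in the values of the synthetase genes was not tested.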

How the data were processed

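Whole adult heads of 4 HEXIM knockdown and 4 WT samples, described as biological replicates, were each measured on an Affymetrix Drosophila_2 array. The authors deposited log2 signals, made with RMA in Affymetrix Expression Console per the labels and with GCRMA per the methods. They were used unchanged. Precision is limited by how many arrays there are. The table holds 18952 probe sets, of which 183 are controls and were dropped. The platform annotation gave 1 symbol to 13646, several to 402 and none to 4721. limma 3.58.1 in R 4.3.3 (lmFit, eBayes, no replicate block, no filter) was fitted to 18769 probe sets with Benjamini-Hochberg adjustment, and was checked on simulated data. Python 3.11.15 was used for tables, exact permutation tests and figures.

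The members and the 18 lists (153 entries, 115 measured) were chosen with earlier results of these data known. Values in every array were given for synthetase genes whose groups do not overlap, the 4 highest and 4 lowest log2 differences of each set and genes whose probe sets differ in sign, and each list is given with the gene of its lowest p. AIMP2, AIMP3, Nmdmc, aay and AsnS, among others, were added after their values were seen. Of the alternatives, 15 were planned and 1, without the 3 arrays that stand apart, was added after seeing the data. Sequences were not used here.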

Additional observations from a re-analysis of the deposited data

Results flagged for a closer look

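Each gene and probe set was looked at within each genotype, 64 sets of 4 arrays, for an array lying far outside the range of its replicates. There were 3 such cases, close to the 3.2 (1 in 20) that chance gives, and all concerned HEXIM knockdown replicate 4. GluProRS stood at 8.65 in that array and at 8.88 to 8.92 in the other knockdown arrays. LeuRS stood at 7.41 and at 7.84 to 7.89 in the others. The dimmest probe set of TrpRS stood at 7.87 and at 6.28 to 6.37 in the others.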

How the results depend on the processing

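No synthetase gene passed the limma test under any of the 16 alternatives except array weights, where 1 mitochondrial gene, ValRS-m, did. Over all probe sets 48 were called, against 507 with array weights, 46 and 48 without HEXIM knockdown replicates 1 and 4, 10 without HEXIM knockdown replicate 2, 13 without replicate 3, 11 to 13 without any 1 WT array, and 3 without the 3 arrays that stand apart (fewer arrays enter these fits, and the cause of the others was not tested). Replicates of the same number did not deviate together as a rule (correlations of -0.11, 0.57, -0.19 and -0.72). The 3 arrays that stand apart enter these correlations, so whether same-numbered samples were prepared together cannot be told from them. With the replicate number as a block 1 probe set was called. The median log2 difference of the mitochondrial genes was -0.07, against -0.13 with array weights, -0.14 without HEXIM knockdown replicate 3 and -0.064 without HEXIM knockdown replicate 2, the ends of the range without 1 array. The median of the cytosolic genes was 0.02 and changed sign, with -0.034 with array weights, -0.011 with the mean of a gene's probe sets and -0.045 to 0.034 without 1 array (negative without HEXIM knockdown replicate 1, WT replicate 1 or WT replicate 3). ValRS-m, AsnRS-m, TrpRS-m and GluRS-m kept a negative sign in every alternative that gave a value. A minimum mean log2 level of 5 left out GluRS-m and MetRS-m.

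Signs turned in genes with log2 differences between -0.11 and 0.08. With array weights ThrRS was -0.0067, ValRS -0.063, AsnRS -0.027 and MetRS-m -0.13. With the mean of its probe sets TrpRS was -0.039. Without the 3 arrays that stand apart GlyRS was 0.049, GlnRS 0.013, LysRS -0.018 and MetRS-m -0.064. Without 1 array the values ran from -0.19 to 0.13 for CysRS, from -0.087 to 0.041 for TyrRS, from -0.048 to 0.047 for LysRS, from -0.031 to 0.068 for ThrRS, from -0.014 to 0.074 for ValRS, from -0.034 to 0.13 for TrpRS, from -0.00013 to 0.18 for LeuRS, from -0.0046 to 0.11 for AlaRS, from -0.042 to 0.25 for SerRS, from -0.15 to 0.075 for IleRS-m, from -0.086 to 0.023 for CysRS-m, from -0.10 to 0.24 for AspRS-m and from -0.094 to 0.21 for ArgRS-m.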
